A study of Mus musculus with 12 samples.

Results

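The 10 genes described here encode the receptor chains through which macrophages sense IL-4, IL-10, M-CSF, interferons and IL-6, together with Csf1, the gene of M-CSF itself. They were chosen by name, for their role, as Il4ra, Il13ra1, Il2rg, Il10ra, Il10rb, Csf1r, Csf1, Ifngr1, Ifnar1 and Il6ra, out of 35275 genes counted in each library. All 10 passed the filter on low counts, with at least 138 reads in every library. The cells were bone marrow-derived macrophages (BMDMs) of wildtype mice, grown for 6 days with M-CSF, IL-4 and IL-10 while DMSO, olaparib or MNA was present. Olaparib is an inhibitor of poly(ADP-ribose) polymerases, MNA is methyl-nicotinamide, an NAD derivative, and DMSO is the vehicle. Every group held 4 RNA-seq libraries, and all groups, the DMSO controls included, had received the same 3 cytokines, so the ligands of the IL-4, IL-10 and M-CSF receptors were present throughout. The study names 4 donor mice, all libraries come from cells differentiated in culture, and the comparisons asked how each compound changed gene expression during that differentiation.

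Cytokine receptors of this kind work as pairs or larger sets of chains that carry no enzyme of their own and borrow JAK kinases, which phosphorylate STAT transcription factors. A ligand-binding chain gives specificity and a shared chain gives the signal. The IL-4 receptor joins Il4ra with Il2rg, the common gamma chain, or with Il13ra1, the chain that also binds IL-13, and it signals through STAT6. The IL-10 receptor joins Il10ra, which binds IL-10, with Il10rb, which is shared with IL-22 and interferon lambda receptors, and it signals through STAT3. The receptors for interferon gamma and for type I interferons join Ifngr1 with Ifngr2 and Ifnar1 with Ifnar2. Csf1r stands apart from these families as a receptor tyrosine kinase, bound by M-CSF and IL-34, that macrophages need for survival and differentiation.

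MNA replicate 2 stood apart from its group and is given apart throughout. On the leading principal components, which held 49.8% and 24.9% of the variance, it lay among the DMSO libraries, while the other 3 MNA libraries lay together. Leaving it out lowered the common dispersion of the counts from 0.0333 to 0.0123, so values for MNA are given for replicates 1, 3 and 4 with replicate 2 beside them, and the members' tests against DMSO and the counts over gene lists are given with and without it. Values of single genes of the lists come from the fit of all 12 libraries unless stated. The libraries held 21146291 to 31446849 counted reads. The summed level of 9 macrophage markers was 5191 to 6026 CPM (reads of a gene scaled to a common library size) in DMSO, 9258 to 10988 in olaparib and 5449 to 7106 in MNA replicates 1, 3 and 4, and 4917 in MNA replicate 2. The higher olaparib sum came largely from Lyz2 (1625 to 2532 CPM in DMSO and 5114 to 6559 in olaparib) and Itgam (365 to 511 and 1309 to 1619), while Cd68 was lower (1095 to 1309 and 813 to 869). Of the 9 markers, 4 rose and 1 fell with olaparib and 1 rose and 1 fell with MNA, or 4 and 2, and 2 and 4, without MNA replicate 2. Markers of other cells were low beside the macrophage sum, and most sums were carried by few genes. The marker genes named here were chosen after their values were seen. The neutrophil sum of MNA replicate 4 was spread over more genes, with S100a9 at 20.8, S100a8 at 13.2 and Ltf at 8.97 CPM. In MNA replicates 1 and 3 S100a9 was at 1.11 and 2.70 CPM and S100a8 at 1.11 and 1.54. The sum of 8 erythroid markers was also highest in MNA replicate 4, at 56.5 CPM, of which Hba-a1 made up 48.3. The erythroid sum was 0.0952 to 4.27 CPM in DMSO, 0.105 to 0.337 in olaparib and 0.0358 in MNA replicate 2. Hba-a1 was at 0 in the other MNA libraries. The sum of 9 T and NK cell markers was 4.45 to 8.28 CPM in DMSO, 13.6 to 25.3 in olaparib, 32.0 to 48.8 in those 3 MNA libraries and 6.91 in MNA replicate 2. In olaparib most of it was Klrb1c (10.6 to 16 CPM, beside 2.20 to 3.35 in DMSO). In the 3 MNA libraries most was Gzma (23.0 to 41.2, beside 0.188 to 1.44), while Klrb1c was at 0.885 to 2.10. Nkg7 was at 1.97 to 2.21 CPM there, beside 0 to 0.134 in DMSO and 0.0716 in MNA replicate 2. The Cd3 genes and Ncr1 stayed below 1 CPM in every library but lay above every DMSO library in those 3. Mean Cd3e was 0.0256 CPM in DMSO and 0.601 in the 3 MNA libraries, and mean Cd3d 0.0249 and 0.360. Lck and Cd2 overlapped DMSO. The sum of 7 B cell markers was 1.88 to 3.45, 3.85 to 9.13, 14.5 to 23.4 and 3.04 CPM in the same order, that of 10 neutrophil markers 6.09 to 20.4, 58.2 to 72.6, 22.2 to 82.8 and 5.48, and that of 6 eosinophil markers 3.92 to 7.02, 31.4 to 59.1, 7.04 to 10.1 and 5.01. Ighm made up most of the B cell sum, Siglecf of the eosinophil sum and Mmp8 of the neutrophil sum in olaparib (55.1 to 69.6 CPM), where Ly6g was at 0 and S100a9 at no more than 0.0786 CPM. The part of these cells in the results below was not tested. In bulk RNA, fewer cells of a type and less RNA per cell cannot be told apart.

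The calls of Il13ra1 and Csf1 with MNA and of Ifngr1 with olaparib stood in nearly every alternative fit. The stretch upstream of Il2rg held none of the motifs searched. For these reasons the sequences just upstream of these 4 members are shown. Each is the RefSeq sequence (GRCm38.p6) of the bases before the start of the gene, read on the strand of the gene from 5′ to 3′, with GC boxes in capitals. Il13ra1 lies at chrX:36111858-36112107 on the plus strand, Csf1 at chr3:107760470-107760719 on the minus strand, Ifngr1 at chr10:19591699-19591948 on the plus strand and Il2rg at chrX:101268256-101268505 on the minus strand.
Il13ra1: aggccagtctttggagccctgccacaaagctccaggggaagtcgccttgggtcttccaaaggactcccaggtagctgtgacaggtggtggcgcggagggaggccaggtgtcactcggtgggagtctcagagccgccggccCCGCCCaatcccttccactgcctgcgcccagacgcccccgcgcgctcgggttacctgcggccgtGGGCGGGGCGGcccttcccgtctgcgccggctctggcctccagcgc
Csf1: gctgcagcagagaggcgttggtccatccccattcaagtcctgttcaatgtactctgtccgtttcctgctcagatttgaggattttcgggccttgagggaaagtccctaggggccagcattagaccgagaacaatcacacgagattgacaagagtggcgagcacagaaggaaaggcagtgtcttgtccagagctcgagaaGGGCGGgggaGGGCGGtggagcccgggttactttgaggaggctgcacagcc
Ifngr1: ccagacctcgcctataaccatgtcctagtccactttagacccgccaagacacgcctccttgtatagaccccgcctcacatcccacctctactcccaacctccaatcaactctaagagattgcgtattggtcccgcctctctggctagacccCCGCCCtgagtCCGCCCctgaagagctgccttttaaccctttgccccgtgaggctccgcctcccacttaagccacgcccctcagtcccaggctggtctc
Il2rg: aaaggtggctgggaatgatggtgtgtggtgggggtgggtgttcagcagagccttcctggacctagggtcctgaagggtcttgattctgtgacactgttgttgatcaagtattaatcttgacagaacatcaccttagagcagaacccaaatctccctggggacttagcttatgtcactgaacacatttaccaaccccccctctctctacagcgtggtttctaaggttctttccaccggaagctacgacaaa

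Of the 10 members, 7 had a promoter entry. The GC box, GGGCGG on either strand, the letters of the site that Sp factors bind, occurred in the windows of Il13ra1, with 3 copies, and of Csf1, Ifngr1 and Ifnar1, with 2 copies each. It was present in 32.7% of the 32851 windows of 250 bases in the table. The 3 copies in Il13ra1 include 2 that overlap by a base in a single run of capitals. The letters GAGGAA, as bound by PU.1, the transcription factor that myeloid cells depend on, occurred once in the windows of Ifnar1 and Il6ra and were present in 23.3% of all windows. The STAT-type letters TTC and GAA with 3 bases between them (7.02% of all windows) or 4 bases between them (5.85%), the interferon-response letters GAAA repeated after 2 bases (2.98%) and TATAAA (12.4%) were in none of the 7 windows. The window of Il13ra1 was 70.8% GC and that of Il2rg 49.2%, where the median over all windows was 52.4%. These matches describe letters only, and the window of Il4ra held 99 bases.

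Per length of exon, the members spanned a wide range of levels. In DMSO the mean level was highest for Csf1r, with 89.6 ± 14.1 CPM per kb (SD, n = 4), followed by Il10rb with 43.2 ± 3.12, Ifnar1 with 33.7 ± 2.24 and Ifngr1 with 21.8 ± 2.34. The lowest were Csf1 with 3.52 ± 0.478, Il6ra with 3.41 ± 0.459 and Il13ra1 with 1.63 ± 0.142 CPM per kb. Between these lay Il10ra with 11.9 ± 1.35, Il2rg with 10.7 ± 2.35 and Il4ra with 8.46 ± 0.623 CPM per kb, whose library ranges overlapped from neighbour to neighbour, as did those of Csf1 and Il6ra. All other neighbours in this order were separated in every DMSO library. In olaparib Ifnar1 (37.7 ± 2.90) and Il10rb (37.4 ± 2.74) overlapped. In MNA replicates 1, 3 and 4 Il10rb, at 25.4 ± 3.33 CPM per kb (n = 3), lay below Ifnar1 and overlapped Ifngr1, and Il13ra1, at 6.99 ± 0.532, overlapped Csf1 and lay above Il6ra. Csf1r stayed highest in all groups and reached 300.5 ± 16.5 CPM per kb in these 3 MNA libraries.

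**Figure D1:**
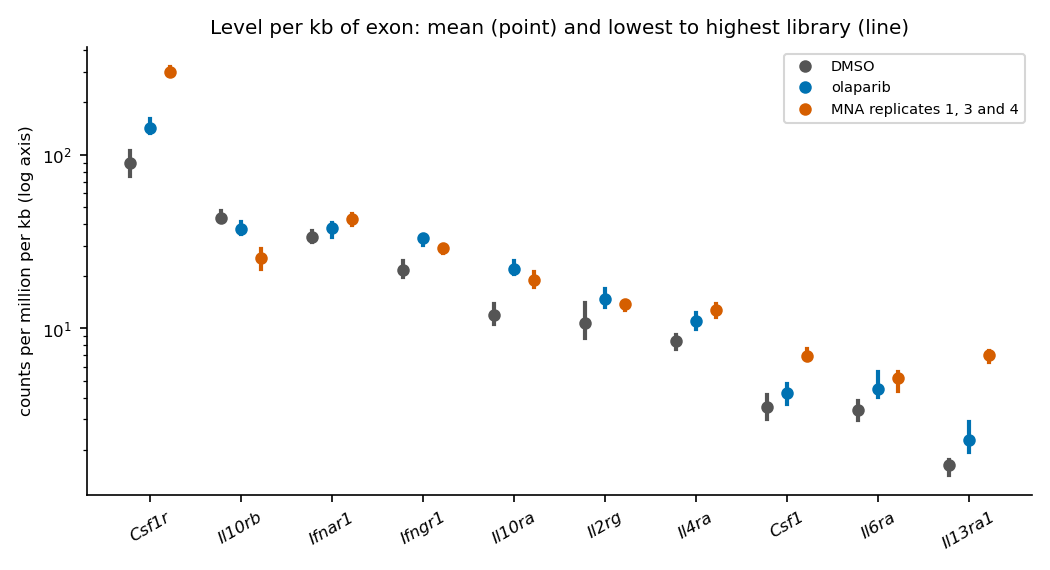
Level of each of the 10 members in CPM per kb of exon on a log axis, with the mean as a point and the lowest to highest library as a line for DMSO (n = 4), olaparib (n = 4) and MNA replicates 1, 3 and 4 (n = 3). The members run from Csf1r to Il13ra1 in DMSO order, and the Il13ra1 point of MNA stands near that of Csf1.

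With olaparib, 4 of the 10 members rose and none fell, with DESeq2 or at an unadjusted p under 0.05 either, in the fit of all 12 libraries (edgeR quasi-likelihood test, Benjamini-Hochberg adjusted p under 0.05 over 12849 genes). They were Il10ra, Ifngr1, Il2rg and Il4ra. Of all tested genes, 14.3% were called up and 12.8% down in that comparison. The median log2 fold change of the members was 0.43, beside 0.00 for all tested genes, and 9 of 10 estimates were positive. Once MNA replicate 2, a library of neither group, was left out, 8 members were called up, where 22.5% of genes were called up and 21.2% down. The estimates stayed the same at 2 decimals, the standard errors shrank, and Il13ra1, Csf1r, Csf1 and Il6ra were added.

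With MNA, 7 members rose and 1, Il10rb, fell, where 16.3% of all genes were called up and 12.3% down. The largest differences were those of Il13ra1, Csf1r and Csf1. The median over the members was 0.45 on the log2 scale, beside 0.00 for all genes. With replicate 2 left out, 9 members were called up and Il10rb down, so that all 10 were called, where 27.2% of genes were called up and 26.9% down, and the members' median was 0.60. Each treatment was compared with the same 4 DMSO libraries.

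**Figure D2:**
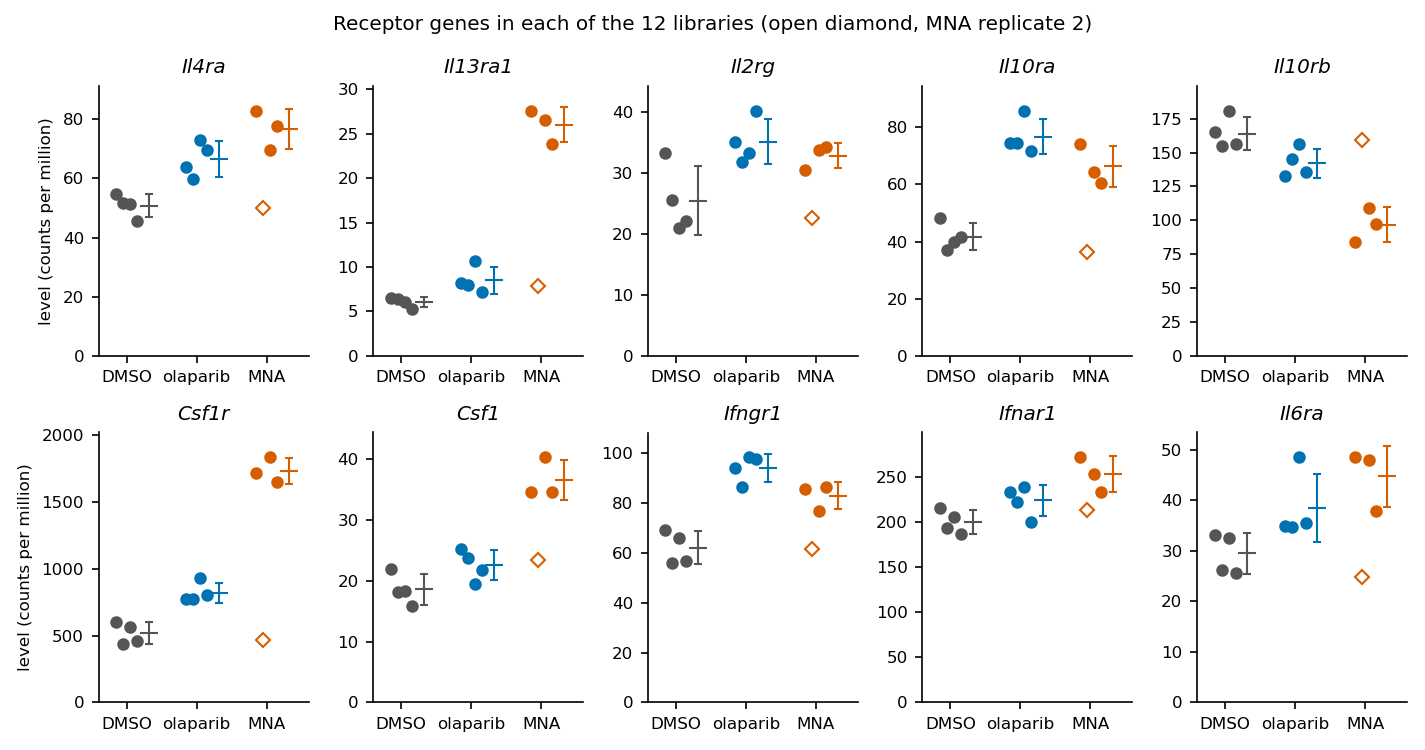
Level of each member in CPM in each of the 12 libraries, 1 panel a gene, with axes that start at 0. Filled points are libraries, open diamonds MNA replicate 2, and bars the mean ± SD of each group (for MNA of replicates 1, 3 and 4). The open diamond of Csf1r sits at 467, among the DMSO libraries, and the other 3 MNA libraries at 1649 to 1838.

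Il4ra binds IL-4 and is common to both forms of its receptor. It was at 54.8, 51.5, 51.2 and 45.7 CPM in the DMSO libraries and at 63.8, 59.7, 73.1 and 69.4 in those of olaparib. In MNA it was at 82.9, 69.6 and 77.7 CPM in replicates 1, 3 and 4, and at 50.0 in replicate 2. Every olaparib library and 3 of the 4 MNA libraries lay above all DMSO libraries. The rise was 1.31-fold with olaparib (log2 0.39 ± 0.13 SE, edgeR adjusted p = 0.0467, or 0.00112 without MNA replicate 2) and 1.38-fold with MNA (log2 0.46 ± 0.13, adjusted p = 0.0270), or 1.51-fold without replicate 2 (log2 0.59 ± 0.08, adjusted p = 3.57e-05). The olaparib call lay close to the threshold and was lost in 11 of 18 alternative fits, among them that without any 1 of the 8 compared libraries, with adjusted p up to 0.120 (without DMSO replicate 4). The MNA call was lost in 7, among them leaving out MNA replicate 1, 3 or 4 or any DMSO library but replicate 1, with adjusted p up to 0.0824. Of the transcript sequence of Il4ra (chr7:125552120-125579474, GRCm38), 8.86% is shared with Gm44876, which is annotated on the other strand.

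Il13ra1, the chain that pairs with Il4ra to bind IL-4 or IL-13, showed the largest fold change of the members. DMSO libraries held 6.47, 6.43, 6.03 and 5.33 CPM and olaparib libraries 8.23, 7.94, 10.7 and 7.21. MNA replicates 1, 3 and 4 held 27.6, 26.5 and 23.8 CPM, more than double any library of the other groups, and replicate 2 held 7.84. The groups did not overlap, except that MNA replicate 2 lay within the olaparib range. The rise with MNA was 3.53-fold (log2 1.82 ± 0.31, edgeR adjusted p = 0.0142) and 4.28-fold without replicate 2 (log2 2.10 ± 0.12, adjusted p = 1.73e-08). The call was lost in 1 alternative, with DMSO and MNA libraries fitted alone (adjusted p = 0.0640), where 0 of all 12379 genes tested were called. With olaparib the estimate was 1.40-fold (log2 0.49 ± 0.31, 95% interval -0.18 to 1.16, adjusted p = 0.248), and it passed the test only in 3 of 18 alternatives, among them that without MNA replicate 2 (adjusted p = 0.00541). The gene (chrX:36112110-36171259, plus strand) shares no 31-base word with another gene.

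Il2rg (chrX:101264378-101268255, minus strand), the common gamma chain, is used by receptors for IL-2, IL-4, IL-7, IL-15 and IL-21 and is also abundant in lymphocytes. It was at 33.4, 25.6, 21 and 22.1 CPM in DMSO, at 35.1, 31.8, 33.4 and 40.3 in olaparib, and at 30.6, 33.8 and 34.3 in MNA replicates 1, 3 and 4, with 22.6 in replicate 2. DMSO replicate 1 overlapped both other groups, and the other 3 DMSO libraries lay below all but MNA replicate 2. It rose 1.38-fold with olaparib (log2 0.47 ± 0.16, edgeR adjusted p = 0.0481, or 0.00766 without MNA replicate 2), a call lost in 11 of 18 alternatives, with adjusted p up to 0.139 (without olaparib replicate 4). With MNA the estimate was 1.19-fold (log2 0.25 ± 0.16, adjusted p = 0.240), and 1.29-fold without replicate 2 (adjusted p = 0.0306). The summed T and NK cell markers, mostly Gzma, were highest in the same MNA libraries. Of the words of its transcripts, 28.7% also occur in Gm20489, a model on the same strand that was at no more than 0.0344 CPM. The 2 genes share 728 of the 2387 exon bases of Il2rg. Reads there can be lost from both counts, so the level of Gm20489 does not show whether any were. The level per kb and the ratio of Il2rg carry this limit.

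Of the IL-10 receptor chains, Il10ra rose with both treatments and Il10rb fell with MNA. Il10ra was at 48.3, 37.2, 39.8 and 41.7 CPM in DMSO and at 74.6, 74.6, 85.8 and 71.8 in olaparib, and at 74.1, 64.3 and 60.4 in MNA replicates 1, 3 and 4. MNA replicate 2, at 36.2 CPM, lay below every DMSO library, and the other libraries of both treatments lay above them all. The rise was 1.84-fold with olaparib (log2 0.88 ± 0.17, edgeR adjusted p = 0.00416, or 4.07e-06 without MNA replicate 2), and it passed the test in all 18 alternatives, with adjusted p up to 0.0169. With MNA it was 1.41-fold (log2 0.49 ± 0.17, adjusted p = 0.0491) and 1.59-fold without replicate 2 (adjusted p = 3.94e-05), but the call was lost in 13 of 18 alternatives, with adjusted p up to 0.143 (without MNA replicate 1). The gene (chr9:45253837-45269149, minus strand) shares no 31-base word with another.

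Il10rb (chr16:91406164-91425834, plus strand) was at 165, 155, 181 and 156 CPM in DMSO and at 133, 145, 156 and 136 in olaparib, with a small overlap. It was at 83.9, 109 and 97.2 CPM in MNA replicates 1, 3 and 4, below all other libraries, and at 159 in replicate 2. It fell 1.46-fold with MNA (log2 -0.55 ± 0.16, edgeR adjusted p = 0.0264) and 1.70-fold without replicate 2 (log2 -0.77 ± 0.09, adjusted p = 9.17e-06), a call lost in 7 of 18 alternatives, such as leaving out MNA replicate 1, 3 or 4 or any DMSO library but replicate 1, with adjusted p up to 0.0828. With olaparib the log2 estimate was -0.21 (95% interval -0.54 to 0.13, adjusted p = 0.337, or 0.0546 without MNA replicate 2). It passed as lower with olaparib when MNA replicate 2 was left out and the replicate number was a block (edgeR adjusted p = 0.00841), and with the DMSO and olaparib libraries alone (adjusted p = 0.0183), but not with the block on 12 libraries (adjusted p = 0.275). Il10rb was the only member with a negative estimate in either comparison with DMSO. Gm21970, a model that joins Il10rb and its neighbour Ifnar2, takes in 14.9% of its words and was at 0 reads in all 12 libraries. Reads in the exons they share, 569 of 3808 bases of Il10rb, can be lost from both counts, which the 0 does not exclude.

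Csf1r, the M-CSF receptor, was at 605, 436, 567 and 462 CPM in DMSO and at 772, 776, 931 and 802 in olaparib. MNA replicates 1, 3 and 4 held 1719, 1838 and 1649 CPM and replicate 2 held 467. The 3 groups did not overlap once MNA replicate 2, which lay among the DMSO libraries, was set apart. The rise was 2.74-fold with MNA (log2 1.45 ± 0.32, edgeR adjusted p = 0.0153) and 3.35-fold without replicate 2 (log2 1.74 ± 0.11, adjusted p = 2.16e-08), and the call was lost without MNA replicate 3 or 4 and with the 2 groups alone, where no gene was called, with adjusted p up to 0.0642. With olaparib it was 1.59-fold (log2 0.66 ± 0.31, 95% interval -0.02 to 1.35, adjusted p = 0.131), and 1.58-fold in the fit without MNA replicate 2, where it passed (log2 0.66 ± 0.10, adjusted p = 1.39e-04). The gene lies on chromosome 18 of GRCm38 (61100598 to 61132149, plus strand), and 873 bases of its exons overlap Hmgxb3 on the other strand. Hmgxb3 was at 28.9 to 38.0 CPM in the 12 libraries, with means of 37.4 in DMSO, 30.7 in olaparib and 30.3 in MNA replicates 1, 3 and 4.

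Csf1 (chr3:107741048-107760469, minus strand), which encodes the M-CSF that the cultures also received as protein, was at 21.9, 18.1, 18.4 and 15.8 CPM in DMSO and at 25.3, 23.7, 19.5 and 21.8 in olaparib. It was at 34.7, 40.4 and 34.6 CPM in MNA replicates 1, 3 and 4, above every other library, and at 23.5 in replicate 2. The rise with MNA was 1.80-fold (log2 0.84 ± 0.15, edgeR adjusted p = 0.0142), or 1.97-fold without replicate 2 (adjusted p = 5.50e-06), lost in 1 alternative, with the 2 groups alone, where no gene was called (adjusted p = 0.0640). The olaparib and DMSO ranges overlapped (log2 0.28 ± 0.15, adjusted p = 0.184, or 0.0405 without MNA replicate 2). The gene of the other Csf1r ligand, Il34, was at no more than 1 read in any library.

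Ifngr1 (chr10:19591949-19610229, plus strand), the chain that binds interferon gamma, was at 69.2, 56.0, 66.0 and 56.6 CPM in DMSO and at 94.2, 86.2, 98.4 and 97.7 in olaparib. It was at 85.7, 76.8 and 86.3 CPM in MNA replicates 1, 3 and 4 and at 61.6 in replicate 2. Both treatments, MNA replicate 2 set aside, lay above all DMSO libraries. It rose 1.52-fold with olaparib (log2 0.60 ± 0.11, edgeR adjusted p = 0.00269, or 2.76e-05 without MNA replicate 2), a call kept in all 18 alternatives, and 1.25-fold with MNA (log2 0.32 ± 0.11, adjusted p = 0.0422), a call lost in 12 of 18, with adjusted p up to 0.124 (without MNA replicate 4). Leaving out MNA replicate 2 gave 1.34-fold (adjusted p = 5.50e-04).

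Ifnar1 (chr16:91485238-91507441, plus strand), a chain of the type I interferon receptor, moved least of the members that passed with MNA. It was at 216, 193, 206 and 187 CPM in DMSO, at 233, 222 and 239 in olaparib replicates 1 to 3, with replicate 4 inside the DMSO range, and at 272, 253 and 233 in MNA replicates 1, 3 and 4, with 213 in replicate 2. The olaparib range overlapped that of DMSO, and 3 MNA libraries lay above it. The rise with MNA was 1.21-fold (log2 0.28 ± 0.09, edgeR adjusted p = 0.0343, or 1.26-fold and 0.00239 without replicate 2), lost in 9 of 18 alternatives, with adjusted p up to 0.0992 (without MNA replicate 1). The olaparib estimate was 1.12-fold (95% interval of log2 -0.03 to 0.35, edgeR adjusted p = 0.183, or 0.0919 without MNA replicate 2), and it passed with that library left out and the replicate number as a block (adjusted p = 0.0178).

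Il6ra (chr3:89864059-89913196, minus strand), the IL-6-binding chain, was at 33.2, 26.3, 32.6 and 25.7 CPM in DMSO and at 35.0, 34.8, 48.6 and 35.6 in olaparib. It was at 48.6, 48.0 and 37.9 CPM in MNA replicates 1, 3 and 4 and at 24.8 in replicate 2. Treated libraries other than MNA replicate 2 lay above all DMSO libraries, but neither difference passed in the fit of 12 libraries (olaparib log2 0.39 ± 0.19, edgeR adjusted p = 0.15, and MNA log2 0.43 ± 0.19, adjusted p = 0.102). Both passed without MNA replicate 2, at 1.31-fold (adjusted p = 0.0223) and 1.52-fold (adjusted p = 0.00163). With the replicate number as a block in the fit of 12 libraries, Il6ra was called with MNA. This made 8 members up with MNA, where 2184 of 12849 genes were called up.

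**Figure D3:**
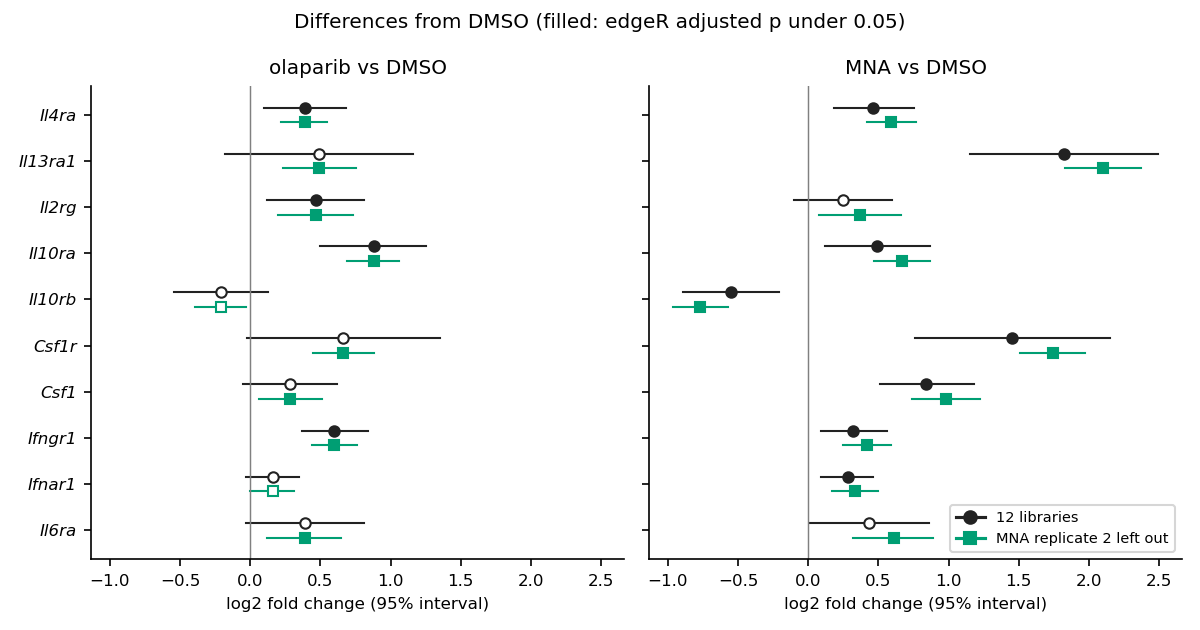
Log2 fold change of each member against DMSO with its 95% interval, for olaparib on the left and MNA on the right. Circles are the fit of 12 libraries, squares that without MNA replicate 2, and filled symbols have an edgeR adjusted p under 0.05. Il13ra1 and Csf1r lie farthest right with MNA (1.82 and 1.45), and Il10rb is left of 0 in both panels.

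In the direct comparison of the treatments, olaparib libraries held less Il13ra1 (2.52-fold, log2 -1.33 ± 0.30, edgeR adjusted p = 0.00934) and less Csf1 (1.48-fold, log2 -0.56 ± 0.15, adjusted p = 0.0212) than MNA libraries. The Il13ra1 call held in all 18 alternatives, and that of Csf1 was lost without olaparib replicate 3 or 4 or MNA replicate 3 or 4, with adjusted p up to 0.0670. These were 2 members lower and 0 higher, where 10.9% of genes were called lower and 10.9% higher. The 3 members higher in olaparib at an unadjusted threshold of 0.05 were Il10ra, Il10rb and Ifngr1 (edgeR), and with DESeq2 none was higher and 3 were lower after adjustment, Csf1r among them (adjusted p = 0.0360). With MNA replicate 2 left out, 3 members were lower in olaparib and 1 higher, where 20.7% of genes were called lower and 21.5% higher. Csf1r, at log2 -0.79 in the edgeR fit of 12 libraries (adjusted p = 0.0924), was then lower (2.11-fold, log2 -1.08 ± 0.11, adjusted p = 3.16e-06), and Il10rb was higher (1.47-fold, adjusted p = 2.45e-04). Il10ra differed by 0.38 ± 0.17 on the log2 scale (adjusted p = 0.128), and by 0.21 ± 0.09 without replicate 2 (adjusted p = 0.0830). For Il4ra the 95% interval of the log2 difference was -0.36 to 0.21 and for Il6ra -0.47 to 0.37.

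Ratios of paired genes within a library, which do not depend on how libraries are scaled, were taken per kb of exon. The ratio of Il10ra to Il10rb was 0.318, 0.261, 0.239 and 0.291 in DMSO and 0.612, 0.562, 0.597 and 0.574 in olaparib. In MNA replicates 1, 3 and 4 it was 0.962, 0.641 and 0.676, and it was 0.248 in replicate 2. All olaparib libraries, and all of MNA but replicate 2, lay above DMSO. The difference from DMSO was 1.09 on the log2 scale with olaparib (exact two-sided permutation test, p = 0.0286, the smallest that 4 against 4 libraries allow, and 0.0800 adjusted over 14 ratio tests). With MNA it was 1.04 (exact permutation p = 0.114, adjusted p = 0.178), and 1.44 without replicate 2 (exact permutation p = 0.0286, n = 3 against 4). None of the 14 ratio tests passed 0.05 after adjustment. The ratio tests without replicate 2, here and below, are not among these 14 and were not adjusted. Their p of 0.0286 is also the smallest that 3 against 4 libraries allow.

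The ratio of Il4ra to Il13ra1 was 5.23, 4.95, 5.25 and 5.30 in DMSO and 4.79, 4.65, 4.23 and 5.95 in olaparib. It was 1.86, 1.62 and 2.02 in MNA replicates 1, 3 and 4 and 3.94 in replicate 2. Every MNA library lay below every other library. The log2 difference from DMSO was -1.23 with MNA (exact permutation p = 0.0286, adjusted p = 0.0800), and -1.50 without replicate 2, and it was -0.09 with olaparib (exact permutation p = 0.429). The ratio of Il4ra to Il2rg differed by -0.09 with olaparib and 0.19 with MNA, within the spread of the libraries (exact permutation p = 0.543 and 0.286).

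Ratios of the interferon receptor chains were also compared. Ifngr1 to Ifngr2 was 0.445 to 0.524 in the DMSO libraries and 0.638 to 0.719 in olaparib, a log2 difference of 0.54 (exact permutation p = 0.0286, adjusted p = 0.0800). In MNA it was 0.487 to 0.602 in all 4 libraries, and overlapped DMSO (log2 difference 0.17, exact permutation p = 0.114). Ifnar1 to Ifnar2 was 1.73 to 1.95 in DMSO, 1.77 to 2.23 in olaparib and 1.98 to 2.64 in MNA, replicate 2 included, with log2 differences of 0.16 and 0.26 (exact permutation p = 0.114 and 0.0286, adjusted p = 0.178 and 0.0800). Il6ra to Il6st, the signal chain of the IL-6 family, was 0.0261 to 0.0315 in DMSO and 0.0412 to 0.0525 in olaparib (log2 difference 0.65, exact permutation p = 0.0286, adjusted p = 0.0800). It was 0.0421 to 0.0465 in MNA replicates 1, 3 and 4 and 0.0254 in replicate 2. The log2 difference with MNA was 0.44 over all 4 (exact permutation p = 0.143, adjusted p = 0.182) and 0.64 over the 3 (exact permutation p = 0.0286). Csf1 to Csf1r was 0.0355 to 0.0453 in DMSO, 0.0229 to 0.0358 in olaparib, 0.0221 to 0.0241 in MNA replicates 1, 3 and 4, and 0.0550 in MNA replicate 2. Although both genes rose, the ligand gene was lower relative to its receptor gene in those 3 MNA libraries than in any DMSO library (log2 difference -0.46 over all 4, exact permutation p = 0.143, and -0.77 over the 3, exact permutation p = 0.0286).

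**Figure D4:**
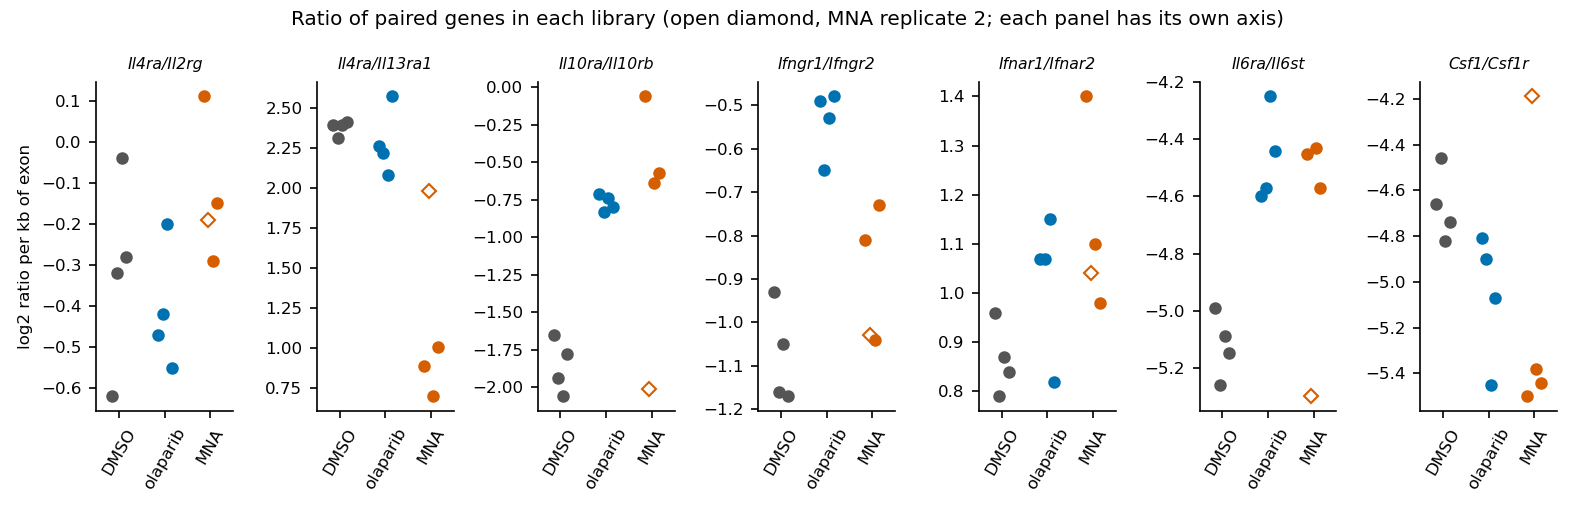
Log2 ratio per kb of exon of 7 pairs of genes in each library, 1 panel a pair with its own axis. Points are libraries and open diamonds MNA replicate 2. Il10ra/Il10rb lies between -2.06 and -1.65 in DMSO and between -0.83 and -0.71 in olaparib, and Il4ra/Il13ra1 is lowest in MNA.

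Of 24 partner chains and other receptors of the cytokine families, 19 passed the filter on low counts. All list counts given here stand beside the same shares of all genes, which were 14.3% up and 12.8% down with olaparib and 16.3% and 12.3% with MNA, or 22.5% and 21.2%, and 27.2% and 26.9%, without MNA replicate 2. With olaparib 1 rose, 4 fell and 14 were not called, with a median log2 fold change of 0.03. The gene that rose was Il21r, the IL-21-binding chain that pairs with Il2rg. It was at 22.2, 12.7, 12.4 and 14 CPM in DMSO and at 78.8, 78.3, 70 and 94.0 in olaparib, without overlap (log2 2.40, edgeR adjusted p = 1.74e-04), and at 36.4, 23.2 and 32.4 in MNA replicates 1, 3 and 4 and 14.1 in replicate 2 (log2 0.80, adjusted p = 0.0417). Those that fell were Csf2rb2, a beta chain for IL-3 (log2 -0.49, adjusted p = 0.00308), Il3ra (log2 -0.34, adjusted p = 0.0476), Il6st (log2 -0.27, adjusted p = 0.0335) and Il7r, the IL-7-binding chain (log2 -0.30, adjusted p = 0.0412). The second chains of the interferon receptors differed little, with log2 values of 0.07 for Ifngr2 (adjusted p = 0.485) and -0.01 for Ifnar2 (adjusted p = 0.954).

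With MNA 8 of the 19 rose, 2 fell and 9 were not called, with a median of 0.28. Csf2rb, the common beta chain of the GM-CSF, IL-3 and IL-5 receptors, was at 1657 to 1775 CPM in DMSO, at 3027, 3042 and 3143 in MNA replicates 1, 3 and 4 and at 1665 in replicate 2 (log2 0.67, edgeR adjusted p = 0.0176). Il2rb, the chain shared by IL-2 and IL-15 receptors, was at 0.609, 0.550, 1.54 and 1.05 CPM in DMSO and at 20.9, 19.2 and 22.0 in those 3 libraries, with 1.04 in replicate 2 (log2 4.05, adjusted p = 0.0142). Il2ra (log2 1.91, adjusted p = 0.0370), Il12rb1 (1.67, 0.0175), Il12rb2 (1.45, 0.0142), Il21r, Csf2ra (0.28, 0.0438) and Il17ra (0.38, 0.0241) also rose. Those that fell were Il7r (log2 -0.38, adjusted p = 0.0210) and Il11ra1 (-0.33, adjusted p = 0.0213). The summed T and NK cell markers, mostly Gzma, were high in the same 3 MNA libraries (32.0 to 48.8 CPM), and their part in the rise of Il2rb, Il2ra, Il12rb1 and Il12rb2 was not tested.
The 4 other tested receptors were not called in either comparison. The log2 values with olaparib and with MNA were -0.13 and -0.59 for Csf3r, 0.35 and 0.97 for Il15ra, 0.01 and -0.31 for Il27ra and -0.04 and 1.32 for Lifr. With that library left out each of these 4 passed with MNA (edgeR adjusted p = 0.0232, 0.00129, 0.00114 and 0.00804), and the counts over the 19 became 5 up and 5 down with olaparib and 11 up and 5 down with MNA. Near-identical sequence limits some of these values. Of the words of their transcripts, Csf2rb2 and Csf2rb share 30.1% and 19.7%, mostly with each other, Il11ra1 shares 57.7% with Gm13305 and others, and Il12rb2 shares 38.6%, with Serbp1 on the other strand.

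Several of these genes are neighbours. On chromosome 16 of GRCm38, Ifnar2, Il10rb, Ifnar1 and Ifngr2 follow each other on the plus strand within 193 kb, with 0.574 kb between Ifnar2 and Il10rb. Within this cluster, in the fit without MNA replicate 2, Il10rb fell with MNA (log2 -0.77, edgeR adjusted p = 9.17e-06) while Ifnar1 (0.33, adjusted p = 0.00239) and Ifngr2 (0.21, adjusted p = 0.00712) rose and Ifnar2 was at 0.04 (adjusted p = 0.576). On chromosome 7, Il21r starts 24.0 kb past the end of Il4ra on the same strand. Both rose with both treatments, and with olaparib the log2 value was 2.40 for Il21r and 0.39 for Il4ra. On chromosome 15, Csf2rb2, Csf2rb and Il2rb lie within 213 kb. There, again in the fit without MNA replicate 2, Csf2rb2 was at a log2 value of 0.10 with MNA (edgeR adjusted p = 0.349). In the same fit Csf2rb was at 0.85 (adjusted p = 2.83e-08) and Il2rb at 4.43 (adjusted p = 2.20e-07). Neighbours thus did not share a direction on chromosome 16.

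**Figure D5:**
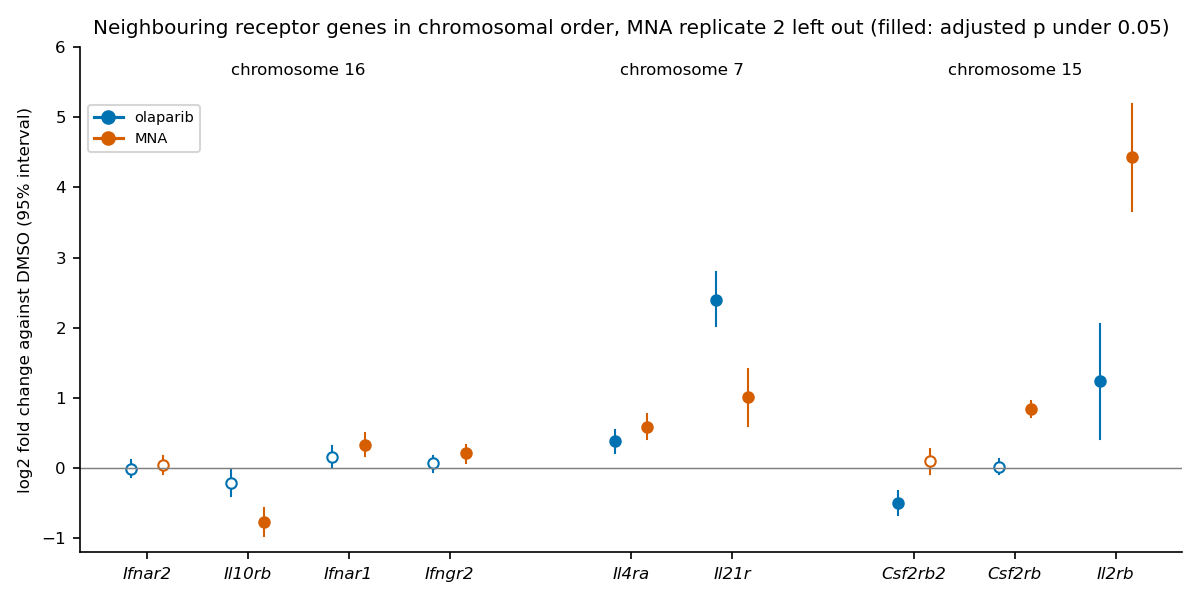
Log2 fold change against DMSO with its 95% interval for receptor genes that lie next to each other, in chromosomal order, in the fit without MNA replicate 2 (filled, edgeR adjusted p under 0.05). On chromosome 16 Il10rb is at -0.77 with MNA while its neighbour Ifnar1 is at 0.33.

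The genes of the ligands were mostly silent. Of 14 ligand genes 5 passed the filter, and those of IL-10 and IL-6 reached at most 2 and 8 reads in any library. Il4 itself was at 1.28 ± 0.310 CPM in DMSO (SD, n = 4) and 0.881 ± 0.158 in olaparib, without a call. None of the 5 was called with olaparib (edgeR, 0 at an unadjusted p under 0.05), and 3 rose with MNA, or 1 and 3 without MNA replicate 2, where 1 also fell with MNA. Il15, whose product signals through Il2rb and Il2rg, was at 4.16 to 5.23 CPM in DMSO, at 14.8, 16.2 and 14.6 in MNA replicates 1, 3 and 4 and at 5.98 in replicate 2 (log2 1.45, edgeR adjusted p = 0.0142). Il27 rose from 0.192 ± 0.139 to 0.886 ± 0.342 CPM (n = 3, log2 1.90 over all 4, adjusted p = 0.0376). Ifng was at 0 to 0.134 CPM in DMSO and at 1.15, 1.39 and 1.17 in those 3 MNA libraries, with 0.107 in replicate 2 (adjusted p = 0.0192), where the T and NK cell sum was also high.

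Among 29 tested JAK, STAT and inhibitor genes, which act directly below these receptors, 6 rose and 6 fell with olaparib (median log2 0.15) and 8 rose and 4 fell with MNA (median -0.01). Leaving out MNA replicate 2 gave 11 and 8, and 15 and 8, of 30. Socs3, a feedback inhibitor of STAT3 signals, was at 14.8, 15.7, 21.2 and 12.1 CPM in DMSO and at 3.11, 1.69, 2.36 and 3.69 in olaparib. It was at 3.74, 3.09 and 3.90 CPM in MNA replicates 1, 3 and 4 and at 12.3 in replicate 2. It fell with both treatments (log2 -2.55, edgeR adjusted p = 0.00186, and -1.46, adjusted p = 0.0244), in the libraries where Il10ra was higher. Stat3 fell with olaparib (log2 -0.66, adjusted p = 4.06e-04), as did Ptpn2, a phosphatase that acts on JAKs and STATs (log2 -0.42, adjusted p = 0.00226), and with MNA they were at -0.19 and -0.04, not called, though Stat3 passed with MNA once replicate 2 was left out (-0.23, adjusted p = 0.0401). Stat2, which acts below type I interferon receptors, rose with both (log2 0.82, adjusted p = 0.0162, and 1.02, adjusted p = 0.0144), as did Tyk2, the JAK kinase that binds Ifnar1 and Il10rb (0.28, adjusted p = 0.0440, and 0.34, adjusted p = 0.0251). Ptpn6, a phosphatase that restrains Csf1r and cytokine receptors, rose with MNA (log2 1.25, adjusted p = 0.0142), and so did Pias1 (0.43, adjusted p = 0.0160). Both also rose with olaparib in the fit without MNA replicate 2. Stat6, the main IL-4 signal carrier, was named for its role, as was Tyk2, after values were seen, and it was not called (log2 -0.06, adjusted p = 0.504, and -0.09, adjusted p = 0.276).

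Of 31 genes of M-CSF receptor signalling and its regulators, 6 rose and 4 fell with olaparib (median log2 -0.01), and 8 rose and 7 fell with MNA (median 0.05). Leaving out MNA replicate 2 gave 12 and 10, and 10 and 9. Tyrobp, an adaptor that Csf1r signals engage, rose with both treatments (log2 1.01, edgeR adjusted p = 0.00476, and 0.71, adjusted p = 0.0265), as did Inpp5d, the inositol phosphatase SHIP (0.83, adjusted p = 7.02e-04, and 0.37, adjusted p = 0.0360). The adaptor gene Shc1 rose with olaparib (log2 0.37, adjusted p = 0.00157). The transcription factor genes Maf and Cebpb fell with MNA (log2 -0.86, adjusted p = 0.0170, and -0.72, adjusted p = 0.0197). The gene of PU.1, Spi1, which was named for its place above Csf1r after values were seen, was at 399 to 452 CPM in DMSO and 388 to 454 in all treated libraries, with log2 values of -0.01 and 0.05, not called.

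Genes known to respond to IL-4 and IL-10 moved in both directions. Of 21 tested IL-4 targets 5 rose and 3 fell with olaparib (median log2 0.28), or 8 and 6 without MNA replicate 2, and 3 rose and 5 fell with MNA (median -0.62), or 4 and 13 without MNA replicate 2. The 13 that fell with MNA included Arg1, Chil3, Mrc1 and Retnla, named after values were seen. Their DMSO means were 555, 36703, 679 and 888 CPM, beside 11.4, 726, 149 and 325 in MNA replicates 1, 3 and 4. MNA replicate 2 held 359, 30311, 519 and 543 CPM. The olaparib means were 688, 21862, 571 and 1079 CPM, where Chil3 alone of these passed, as lower, without MNA replicate 2. In the fit of 12 libraries Ccl24, a chemokine induced by IL-4, fell with olaparib (log2 -2.73, edgeR adjusted p = 1.34e-04), and Klf4 fell with MNA (-1.33, adjusted p = 0.0192). Matk and Itgax rose with olaparib (0.89, adjusted p = 0.00110, and 0.62, adjusted p = 0.00214), and Batf3 and Flt1 rose with MNA (0.95 and 2.31, both adjusted p = 0.0142). Itgax also rose with MNA, and Batf3 with olaparib, in that fit. Without MNA replicate 2, Ccl24 also fell and Matk rose with MNA, and Klf4 fell and Flt1 rose with olaparib. Of 19 tested IL-10 targets 3 rose and 5 fell with olaparib (median -0.22), and 2 rose and 4 fell with MNA (median -0.11), or 5 and 9, and 4 and 7, without MNA replicate 2. In the fit of 12 libraries Hmox1 and Slpi rose (0.71, adjusted p = 0.00104, and 2.52, adjusted p = 0.00166) and Arid5a fell (-1.03, adjusted p = 0.00107) with olaparib. Cd14 (0.89, adjusted p = 0.0219) and Zfp36 (0.41, adjusted p = 0.0168) rose with MNA. Zfp36 fell with olaparib in that fit, and Hmox1 also rose with MNA without replicate 2.

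Of 31 tested interferon targets, 16 rose and none fell with olaparib, also at an unadjusted p under 0.05 (edgeR, median log2 0.88), and 16 rose and 1 fell with MNA (median 0.60). In the fit without MNA replicate 2 these counts were 27 and 0, and 23 and 3, of 32. Oasl2, Xaf1 and Usp18, known for type I interferon responses, rose with olaparib (log2 1.84, 0.80 and 1.43, edgeR adjusted p = 3.09e-04, 7.75e-04 and 9.47e-04), and with MNA they were at 0.53, 0.13 and 0.44, not called. In the fit without MNA replicate 2, Oasl2 and Usp18 passed with MNA too (0.63, adjusted p = 0.0217, and 0.59, adjusted p = 0.0107), and Xaf1 was at 0.23 (adjusted p = 0.0575). Gbp2, a GTPase known to respond to interferon gamma, was at 36.1 to 49.6 CPM in DMSO, at 36.4 to 53.1 in olaparib and at 271, 306 and 356 in MNA replicates 1, 3 and 4, with 36.5 in replicate 2 (log2 2.57 with MNA, adjusted p = 0.0142, and 0.15 with olaparib, adjusted p = 0.835). Olaparib libraries held less Gbp2 than MNA libraries (log2 -2.43, adjusted p = 0.00480) and more Oasl2 (1.31, adjusted p = 0.00190), Usp18 (0.99, adjusted p = 0.00639) and Xaf1 (0.67, adjusted p = 0.00195) in the direct test. Ifit2 and Ifit3 rose with MNA (2.49 and 2.19, both adjusted p = 0.0142). Ifit3 also rose with olaparib in the fit of 12 libraries, with means of 0.845 CPM in DMSO and 3.01 in olaparib. Ifit2, at 3.97 and 9.73 CPM, was called up with olaparib in the fit without MNA replicate 2. Beside these, the receptor genes Ifngr1 and Ifnar1 were at log2 values of 0.60 and 0.16 with olaparib and 0.32 and 0.28 with MNA.

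Over the 12 libraries, some genes followed 3 of the members closely. Compared with the 9736 genes that averaged 100 reads or more per library, the highest Pearson r of log2 CPM with Il10ra was 0.987 for Laptm5, a lysosomal membrane protein of blood cells, 0.987 for Cdkn1c and 0.986 for Olfm1. With Csf1r it was 0.991 for Slc25a1, the mitochondrial citrate carrier, 0.991 for Tbc1d9b and 0.990 for Akr7a5. With Il4ra it was 0.972 for Impa2 and 0.961 for Gm10925 and for Kctd12. The libraries share groups, so these values describe likeness of pattern in this design and no more.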

How the data were processed

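RNA of 12 libraries of mouse BMDMs was used, 4 each for DMSO, olaparib and MNA. For each library the authors deposited whole-number read counts by Ensembl gene ID, with no scaling. Per the paper's methods and the submitters' processing notes, single-end reads of stranded mRNA libraries were aligned with STAR 2.5.2b to GRCm38.p5 and counted per gene. Which strand column the counts come from is not given in the sources used here, so reads of genes that overlap on opposite strands cannot be told apart with certainty, and reads in exons shared by genes of the same strand can be lost. The study used DESeq2 in R 3.6.0.

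Names, positions and exon lengths came from GENCODE M21 (GRCm38), which held 34490 of the 35275 gene IDs, and promoter sequences from RefSeq (GRCm38.p6). Genes were kept by filterByExpr of edgeR (minimum count 10, minimum total 15), which left 12849, or 13023 without MNA replicate 2. Group differences came from the quasi-likelihood test of edgeR 4.0.16 (R 4.3.3), with TMM scaling, all 12 libraries in 1 fit on group and Benjamini-Hochberg adjustment over all tested genes. A gene was called at an adjusted p under 0.05. CPM values are scaled by TMM library sizes, and levels between genes are compared per kb of exon. Ratios were tested by exact permutation. Text shares count 31-base words of a gene's transcripts found in another gene (Python 3.11.15). Alternatives were DESeq2 1.42.0, its size factors in edgeR, no filter on low counts, the replicate block, the 2 compared groups alone, each library left out, and MNA replicate 2 left out with the block. For the pathway lists this last fit was added after the data were seen.

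The genes named are the 10 members, every tested partner chain, the 3 genes of each other list with the smallest p in each comparison with DMSO, and the 3 genes most like Il4ra, Il10ra and Csf1r. A gene named outside this rule is marked as such. Not every gene that the rule names is reported here. The members and lists were chosen with earlier results of these data known, the lists by hand from general knowledge, and the fit without MNA replicate 2 was planned in that knowledge. The legend names 4 donor mice, but no label ties a library to a mouse, so p-values may measure technical spread in part. Deviations of same-numbered olaparib and DMSO libraries from their group means correlated over genes with r of 0.227, 0.172, 0.225 and 0.408. Each olaparib library was most like the DMSO library of its own number. The main fit and the ratio tests did not use this pairing, which entered only through the replicate block of the alternatives. For MNA and DMSO the correlations were 0.242, 0.114, -0.009 and 0.277, and pairing was not taken as given.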

Additional observations from a re-analysis of the deposited data

Results flagged for a closer look

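Of 51 groups of 4 values (a member's CPM or a chain ratio in a group), 4 held a library whose gap to the nearest other exceeded Dixon's critical share of the range at 95%, where chance gives about 1 in 20. In 3 of them it was MNA replicate 2. Its Csf1r level was 467 CPM, where the other MNA libraries held 1649 to 1838. Its log2 ratio of Il6ra to Il6st was -5.30, where the others were at -4.57 to -4.43, and its log2 ratio of Csf1 to Csf1r was -4.19, where the others were at -5.50 to -5.38. The Csf1r level lay inside the DMSO range of 436 to 605 CPM, the Il6ra to Il6st ratio just below the lowest DMSO library (-5.26) and the Csf1 to Csf1r ratio above the highest (-4.46). The remaining case was Il6ra in olaparib replicate 3, at 48.6 CPM, where the other olaparib libraries held 34.8 to 35.6, and without that library the log2 fold change of Il6ra with olaparib was 0.25 rather than 0.39. The cause of these values was not tested.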

How the results depend on the processing

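Over the alternatives, 430 of 540 log2 fold changes of the members kept their direction and their side of the threshold, 79 lost and 28 gained a call, and 3 changed sign, none of them called. Those 3 were olaparib against MNA, where Il4ra was at 0.01 without MNA replicate 1 and Il6ra at 0.06 without MNA replicate 1 and at 0.04 without MNA replicate 3. Over single left-out libraries these estimates ranged from -0.21 to 0.01 and from -0.22 to 0.06. The ratios kept their direction in all 126 alternatives. Since none passed after adjustment, their side of the threshold shows nothing, and that of Il10ra to Il10rb with MNA ranged from 0.79 to 1.44 on the log2 scale.

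Counts of called members moved more. With no filter on low counts, 2 members rose with olaparib and 4 with MNA, where 1650 and 1821 of 21847 genes were called up. With only the 2 groups compared, 7 rose and 1 fell with olaparib, where 2886 of 12596 tested genes were called up and 2834 down. With MNA 0 rose and 0 fell in such a fit, where 0 of all 12379 tested genes were called (4728 at an unadjusted p under 0.05, edgeR). With the replicate block, 1 member was higher in olaparib than in MNA, where 1502 of 12849 genes were called higher. No other count of calls moved by over 1.5 times with the block. Without MNA replicate 2 and with the block, 9 rose and 1 fell with olaparib, where 3154 of 13023 genes were called up and 2962 down. In that fit 3 were higher and 4 lower in olaparib than in MNA, where 2952 genes were called higher and 2790 lower. Leaving out 1 library, members called up ranged from 2 to 8 with olaparib and from 2 to 9 with MNA, members called down from 0 to 1 with MNA, and in olaparib against MNA from 0 to 1 up and 1 to 3 down. With olaparib the count up was 2 without DMSO replicate 2, 3 or 4, any olaparib library, or MNA replicate 3 or 4, and 8 without MNA replicate 2. With MNA it was 2 without MNA replicate 3 or 4, 3 without DMSO replicate 2, 3 or 4 or MNA replicate 1, and 4 without olaparib replicate 2. Calls over all genes fell as well. With MNA 408 of 13050 genes were up without MNA replicate 3 and 444 of 13037 without replicate 4, beside 2093 of 12849. Where 3 members were up, it was 693 of 13051 (without MNA replicate 1) to 1200 of 13008 (without DMSO replicate 4). Without olaparib replicate 2 it was 1766 of 13076. With olaparib, where 2 members were up, it was 1231 of 12973 genes without olaparib replicate 4 and 1807 of 13037 without MNA replicate 4. The other such fits lay between, and the fit of 12 libraries held 1834 of 12849. Over the pathway lists, 37 genes rose and 21 fell with olaparib and 48 rose and 22 fell with MNA. Without MNA replicate 2 these were 69 and 37, and 70 and 45, and with the block added 75 and 40, and 73 and 48. In this last fit 3618 of 13023 genes were called up and 3547 down with MNA. Il13ra1 had the fewest reads of the members, 138 in its lowest library.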
